A study of Mus musculus with 6 samples.

Results

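The transforming growth factor-beta (TGF-beta) ligand genes Tgfb1, Tgfb2 and Tgfb3, the latent TGF-beta binding protein genes Ltbp1 to Ltbp4 and the activin and inhibin subunit genes Inhba, Inhbb and Inha were examined in epiblast-like cells (EpiLCs) with and without Smad2 and Smad3. Members were chosen by gene symbol, with 1 row per symbol, the row with the most reads. All 10 genes were found among 24288 symbols, in 12 rows. EpiLCs were made from mouse embryonic stem cells of strain 129/Sv//Ev by growth on fibronectin for 48 h in medium with 20 ng/ml activin A and 12 ng/ml Fgf2, and they model the early post-implantation epiblast. Both genotypes received both factors, so every library came from cells given the protein product of Inhba from outside. Wild-type (WT) cells were of the CCE line, and double knockout (DKO) cells were 1 clone, KT15.1F6, in which the region around Smad3 exon 1 was removed by a CRISPR nickase from cells already homozygous for a Smad2 null allele. Each genotype had 3 libraries from independent differentiations of that single line, so that line and genotype cannot be told apart.

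TGF-betas are made as pro-proteins whose N-terminal part stays bound to the cleaved growth factor and keeps it inactive. This latent complex is joined by a disulfide bond to an Ltbp, which carries it to fibrillin and fibronectin fibres of the matrix, from where integrins and proteases release it. Among the Ltbps, Ltbp1 and Ltbp3 bind all latent TGF-betas well, Ltbp4 binds latent TGF-beta 1 weakly, and Ltbp2 does not bind them. Activins are dimers of the beta subunits encoded by Inhba and Inhbb, while inhibins pair a beta subunit with the alpha subunit encoded by Inha and oppose activin. Both TGF-beta and activin act through receptors that phosphorylate Smad2 and Smad3, the route that Nodal also uses in the epiblast.

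Promoter windows are shown for both TGF-beta ligands whose expression changed and for the alternative starts of Ltbp1 and Ltbp4, because those starts define the gene body entries compared further on. Windows run from 250 bases before to 50 bases after a start (RefSeq, GRCm38.p6, the mm10 assembly), and they were given for 9 of the 10 genes, in 12 windows. Capitals mark CAGAC or its complement GTCTG, the short box that Smad3 and Smad4 can bind. The letters are those of the reference strain, not of the 129/Sv//Ev cells.
Tgfb1 (chr7:25686752-25687051, plus strand): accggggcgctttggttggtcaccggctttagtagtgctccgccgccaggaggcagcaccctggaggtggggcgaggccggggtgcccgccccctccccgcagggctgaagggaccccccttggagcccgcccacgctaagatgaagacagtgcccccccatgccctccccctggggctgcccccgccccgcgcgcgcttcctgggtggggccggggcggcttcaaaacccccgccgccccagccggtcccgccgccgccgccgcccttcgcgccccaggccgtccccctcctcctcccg
Tgfb2 (chr1:186705940-186706239, minus strand): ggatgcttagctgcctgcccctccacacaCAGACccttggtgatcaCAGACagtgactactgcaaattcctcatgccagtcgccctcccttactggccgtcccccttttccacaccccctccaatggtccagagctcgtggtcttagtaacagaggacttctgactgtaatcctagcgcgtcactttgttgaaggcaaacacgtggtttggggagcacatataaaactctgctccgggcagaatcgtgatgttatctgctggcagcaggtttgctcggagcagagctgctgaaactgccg
Ltbp1, start of the longer entry (chr17:75005279-75005578, plus strand): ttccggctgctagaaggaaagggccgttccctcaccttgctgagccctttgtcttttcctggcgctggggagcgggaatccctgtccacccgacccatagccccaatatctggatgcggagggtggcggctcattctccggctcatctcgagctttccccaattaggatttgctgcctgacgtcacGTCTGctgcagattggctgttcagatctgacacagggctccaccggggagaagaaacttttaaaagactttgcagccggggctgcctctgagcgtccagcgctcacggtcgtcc
Ltbp1, start of the shorter entry (chr17:75178531-75178830, plus strand): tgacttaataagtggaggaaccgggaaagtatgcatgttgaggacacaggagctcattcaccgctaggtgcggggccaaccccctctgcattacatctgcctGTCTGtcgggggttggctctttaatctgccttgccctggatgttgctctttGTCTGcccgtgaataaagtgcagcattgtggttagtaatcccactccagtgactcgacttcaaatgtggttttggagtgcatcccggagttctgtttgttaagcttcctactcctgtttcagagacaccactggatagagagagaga
Ltbp4, start of the longer entry (chr7:27337563-27337862, minus strand): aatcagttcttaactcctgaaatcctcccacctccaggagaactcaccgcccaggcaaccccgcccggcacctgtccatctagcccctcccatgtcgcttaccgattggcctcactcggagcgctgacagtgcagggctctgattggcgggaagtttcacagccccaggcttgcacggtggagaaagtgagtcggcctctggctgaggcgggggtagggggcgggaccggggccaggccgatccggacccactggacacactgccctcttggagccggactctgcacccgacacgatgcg
Ltbp4, start of the shorter entry (chr7:27333614-27333913, minus strand): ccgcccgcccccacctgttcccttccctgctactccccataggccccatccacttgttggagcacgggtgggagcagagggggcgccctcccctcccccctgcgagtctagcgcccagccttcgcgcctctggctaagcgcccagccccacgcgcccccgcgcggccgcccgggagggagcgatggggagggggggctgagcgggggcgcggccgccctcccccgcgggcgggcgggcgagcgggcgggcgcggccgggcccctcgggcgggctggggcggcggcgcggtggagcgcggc

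The box stands in both Ltbp1 windows and in that of Tgfb2, and not in the windows shown for Tgfb1 and Ltbp4. Of the windows not printed, those of Inha, Ltbp2 and Ltbp3 held it, and those of Inhbb, Inhba and another Ltbp4 start did not. The windows of Inha and Inhba do not lie at the starts of the entries counted here. Whether the box goes with a direction of change was not tested. It was present in 6 of the 12 windows of these genes, 50% of them, against 49.6% of all 32851 promoter windows of the same length, counted on both strands. None of the 12 windows held the palindrome GTCTAGAC, which 0.213% of all windows held.

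The 6 libraries held 57644143 to 63046034 recovered reads each (1 entry per gene), and counts of replicate pairs differed by 3.44 to 5.64 times the sampling variance. Values are reads over gene bodies divided by a size factor per library (normalized reads), and 1 read was worth 0.518 to 0.569 of them. The targeted Smad3 measured 799, 846 and 873 normalized reads in WT and 21.5, 30.5 and 18.7 in DKO. Smad2 measured 4438, 4513 and 4610 in WT and 5176, 5052 and 4958 in DKO, and values over a whole gene body do not show whether the mutated part was read. The 8 markers of EpiLCs summed to 145303 to 148288 normalized reads in WT and 144014 to 146303 in DKO. Dnmt3b weighed most in this sum (70390 ± 1336 and 65421 ± 388), so it says little about the other markers. By the rule given further on, 2 were called lower and 2 higher, at log2 fold changes from -2.02 to 1.47. Fgf5 (3235 ± 12.6 and 798 ± 23.0) and Pou3f1 (6064 ± 147 and 3948 ± 161) were lower. Sox2 (2798 ± 46.0 and 7741 ± 110) and Sall4 (12104 ± 264 and 19211 ± 468) were higher. Over the same libraries, 6 of 8 naive stem cell markers were called higher in DKO (sums of 3638 to 3862 and of 5899 to 6040). So were 7 of 9 trophoblast markers (1784 to 1885 and 3277 to 3629), where 15.4% of all tested entries were called in either direction. Of these, Gata3, Gata2 and Hand1 passed the filter on low counts through their DKO libraries. Their WT libraries held 5, 4 and 9 reads (Gata3), 11, 8 and 9 (Gata2) and 6, 4 and 14 (Hand1). All 8 naive markers and 8 of the 9 trophoblast markers were higher with no overlap between genotypes. Values did not overlap for 60.3% of all tested entries. Of 9 extra-embryonic endoderm markers, 2 were called higher (294 to 326 and 316 to 341). Of 10 fibroblast markers, 1 was called lower (312 to 337 and 224 to 256). The naive, trophoblast and fibroblast sums did not overlap between genotypes, while the EpiLC and extra-embryonic endoderm sums did. In the fibroblast list Col1a2 alone was called (174 ± 12.9 and 82.7 ± 9.45), and 4 tested genes were not. The part of these lists in the differences below was not tested. In bulk RNA, a change in the number of expressing cells and a change in RNA per cell cannot be told apart.

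Among the 10 genes, Ltbp4 was by far the most abundant per unit length in both genotypes. Levels of different genes were compared per kilobase (kb) of gene body. Ltbp4 stood first in WT at 98.5 ± 3.06 normalized reads per kb (SD, n = 3), and Tgfb1 came next at 2.60 ± 0.121, 37.9 times lower. Ltbp3 (1.93 ± 0.197) and Ltbp1 (1.80 ± 0.0945) overlapped in their WT values, as did Inhbb (0.776 ± 0.214) and Inha (0.773 ± 0.174). Ltbp2 (0.285 ± 0.0326), Inhba (0.241 ± 0.101), Tgfb3 (0.195 ± 0.0431) and Tgfb2 (0.194 ± 0.0177) formed the low end, and each overlapped its neighbour in this order. In DKO, Ltbp4 again stood first, at 81.8 ± 0.944, and Ltbp1 came second at 2.10 ± 0.111, ahead of Ltbp3 (1.86 ± 0.501), whose DKO values it overlapped, and of Tgfb1 (1.59 ± 0.180).

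**Figure D1:**
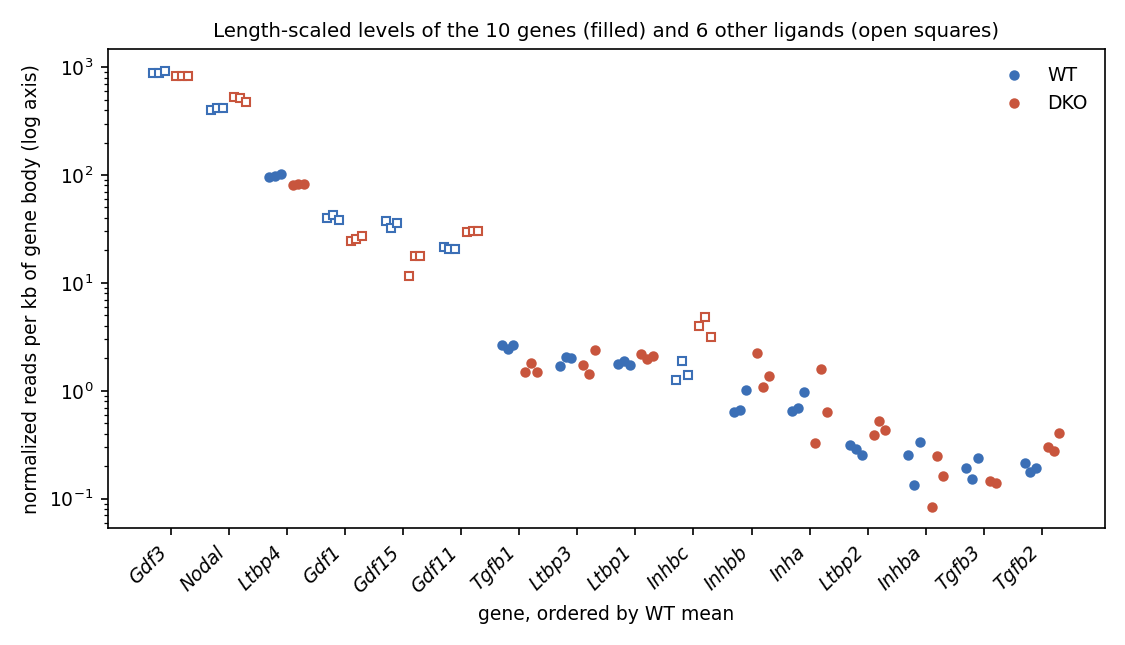
Normalized reads per kb of gene body (log axis) for each library of WT (blue) and DKO (red), genes ordered by their WT mean, with the 10 genes as filled points and 6 other ligands as open squares (Inhbe, whose annotated span differs between sources, is not drawn). Ltbp4 lies at 80.8 to 102, between Nodal and Gdf1, while Tgfb1 lies at 1.49 to 2.67 and the DKO library of Tgfb3 at 0 is not drawn.

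The ligands that the epiblast itself is known to use were far more abundant. Nodal measured 414 ± 10.4 normalized reads per kb in WT and 506 ± 29.9 in DKO, and Gdf3, a Nodal-related ligand, measured 894 ± 22.6 and 829 ± 6.93. In WT these levels were 159 and 344 times that of Tgfb1, the most abundant of the TGF-beta ligands. Gene bodies include introns, which take up most of the longer genes. Per kb of exon, a scale added after the data were seen, the same ratios were 67.6 and 91.3, and Ltbp1 (104 ± 5.47 normalized reads per kb of exon in WT) moved above Tgfb1 (21.6 ± 1.01) to the second place after Ltbp4 (595 ± 18.5). On this scale the other 7 genes lay between 1.24 and 6.57 in WT.

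Of the 10 genes, 7 had enough reads for a test across all entries, and Tgfb3, Inhba and Inha did not. A gene was called changed at a Benjamini-Hochberg adjusted p under 0.05 (limma, adjusted over all entries) and a fold change over 1.5, and by this rule 3904 of 25361 entries changed (15.4%), 7.98% lower and 7.41% higher in DKO. Tgfb1 was lower, Tgfb2 and Ltbp2 were higher, and Ltbp1, Ltbp3, Ltbp4 and Inhbb were not called. The 7 tested genes had a median log2 fold change of 0.22, against 0.00067 over all entries, and a median size without sign of 0.63, against 0.19. All entries were not matched to these genes for read number, so the sizes are not like for like. Ltbp1 and Ltbp4, with the most reads, had sizes of 0.22 and 0.27. The other tested genes had few reads and standard errors of 0.185 to 0.388. WT and DKO values did not overlap for 7 of the 10 genes, among them 6 of the 7 tested, and this held for 60.3% of all tested entries. Under alternative fits, the share of entries called was 15.6% with edgeR, 14.6% with DESeq2, 15.7% with limma-voom, 15.4% with library-size scaling or a replicate block, 15.5% with a pseudocount of 0.1, 12.6% with a pseudocount of 10, 14.0% with no filter, 15.4% with 1 entry per gene, 55.1% without the fold threshold and 14.9% to 15.2% with 1 library left out.

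**Figure D2:**
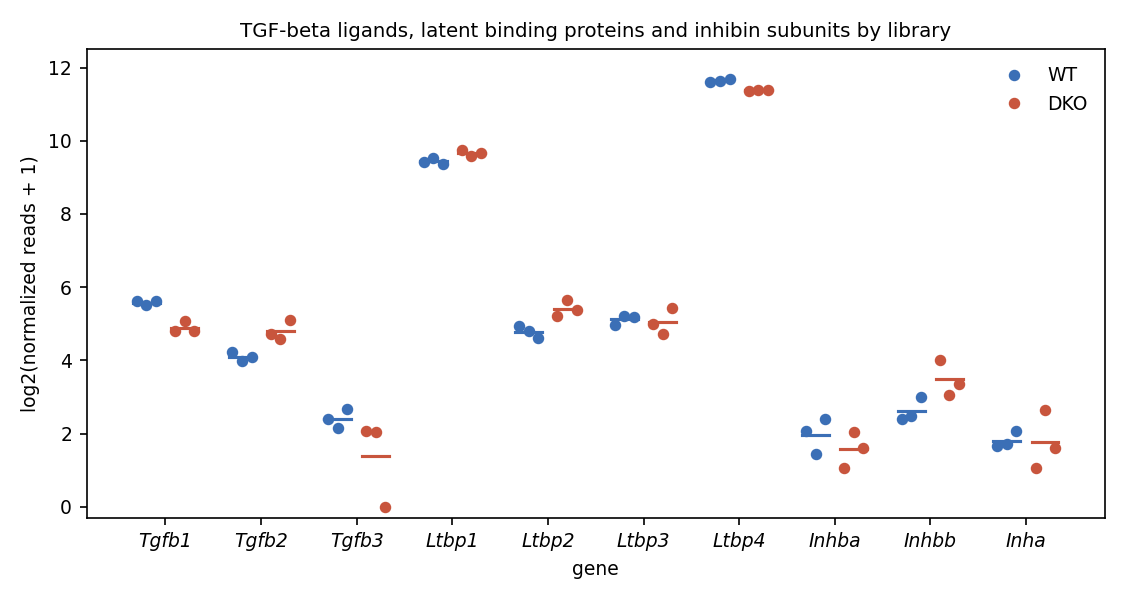
Log2(normalized reads + 1) of each of the 10 genes, 1 point per library, WT in blue and DKO in red, with lines at the mean of 3. In reads not scaled for length, Ltbp4 and Ltbp1 lie above the rest, Tgfb1, Tgfb2 and Ltbp2 show separate groups, and Tgfb3, Inhba and Inha lie between 0 and 10 reads.

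Tgfb1 encodes the ligand that is most widely made in the body. Its gene body (NM_011577, chromosome 7, 25687002 to 25705077, mm10, plus strand, 7 exons) held 48.4, 44.4 and 48.0 normalized reads in the WT libraries and 26.9, 32.6 and 27.0 in the DKO libraries. Every DKO library lay below every WT library. The log2 fold change was -0.69 ± 0.18 (SE, limma, adjusted p = 0.00243), with a 95% confidence interval from -1.07 to -0.31 that contains changes smaller than 1.5-fold. The call held in each of the 6 fits that left out 1 library, at log2 fold changes from -0.78 to -0.64. B9d2, a ciliary gene whose span lies 0.44 kb before that of Tgfb1, also measured less in DKO, at 66.5 ± 1.11 and 46.7 ± 5.52 normalized reads (log2 fold change -0.51 ± 0.15, adjusted p = 0.00699), without reaching 1.5-fold. Ccdc97, 6.04 kb beyond the other end, measured 559 ± 33.8 and 586 ± 15.05 normalized reads. Whether the values of Tgfb1 and B9d2 are linked was not tested.

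Tgfb2 went the other way. This ligand, which needs the co-receptor betaglycan for strong binding to its receptors, has a gene body of 83.2 kb (NM_009367, chromosome 1, 186622792 to 186705989, minus strand, 7 exons) with 17.7, 14.8 and 16.0 normalized reads in WT and 25.3, 23.1 and 33.7 in DKO. The groups did not overlap, and DKO replicate 3 was the highest library. The log2 fold change was 0.71 ± 0.24 (limma, adjusted p = 0.0147, 95% confidence interval 0.21 to 1.21). Without DKO replicate 3 it was 0.56 with an adjusted p of 0.0974, and the call was lost. Its neighbours Rrp15 (4204 ± 156 and 4322 ± 71.9 normalized reads) and Lyplal1 (1304 ± 54.4 and 1030 ± 47.1) were not called. Lyplal1, 505.5 kb away, was lower in DKO by less than 1.5-fold (log2 fold change -0.34 ± 0.04, limma, adjusted p = 1.81e-07). The genes whose log2(value + 1) tracked Tgfb2 most closely over the 6 libraries were Slc29a3, Gigyf2 and Cbs, with Pearson r of 0.996, 0.995 and 0.994 among 11930 genes. All 6 points share the split by genotype, and the correlation is given only as a description.

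Tgfb3 (NM_009368, chromosome 12, 86056745 to 86079041, minus strand) had 8, 6 and 10 reads in the WT libraries and 6, 6 and 0 in the DKO libraries. After scaling, the highest DKO value (3.23 normalized reads) lay just below the lowest WT value (3.42), and this gene fell under the filter on low counts. In a fit with no filter its log2 fold change was -1.03 ± 0.49 with an adjusted p of 0.103 (limma). Over 23.1% of its gene body Tgfb3 overlaps Ttll5 on the opposite strand, and whether strand was used in counting is not given in the sources used here, so these few reads may include some of Ttll5.

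**Figure D3:**
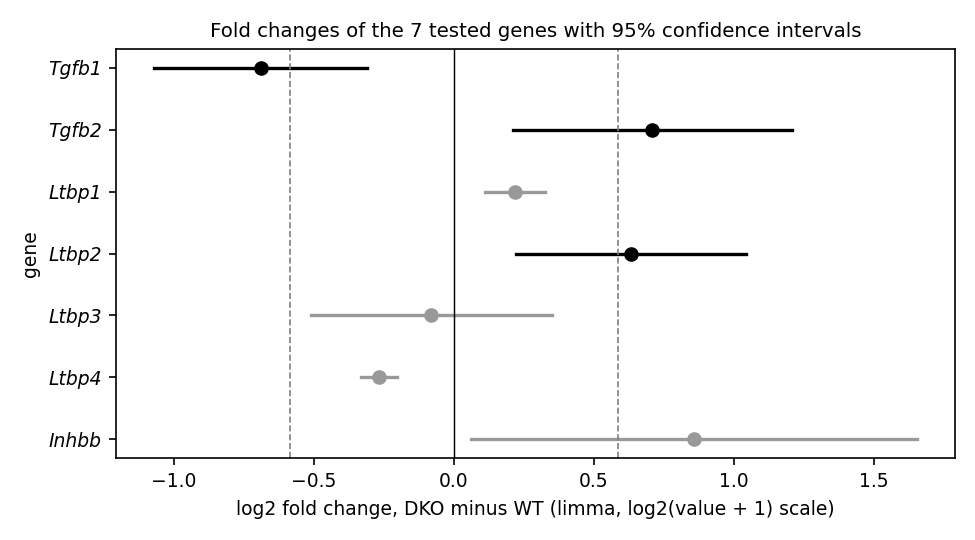
Log2 fold changes (DKO minus WT, limma, on the log2(value + 1) scale) of the 7 tested genes with 95% confidence intervals. Black marks called genes, grey marks genes not called and dashed lines mark 1.5-fold. The interval of each called gene crosses the 1.5-fold line but not 0, and those of Ltbp1 and Ltbp4 lie between 0 and that line.

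Ltbp4 is required for elastic fibre assembly. Over its gene body of 32.6 kb (NM_175641, chromosome 7, 27305136 to 27337692, minus strand, 33 exons) it measured 3127, 3174 and 3318 normalized reads in WT and 2630, 2689 and 2674 in DKO. All DKO libraries were lower, and the difference exceeded the replicate spread. The change was small, at -0.27 ± 0.03 on the log2 scale (limma, adjusted p = 3.74e-08), with an interval of -0.33 to -0.20 that lies wholly under 1.5-fold.

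Ltbp1, the first described of the family, moved by a like amount in the opposite direction. Its gene body spans 386 kb (NM_019919, chromosome 17, 75005568 to 75391767, plus strand, 34 exons) and held 688, 735 and 664 normalized reads in WT and 851, 766 and 811 in DKO. The groups did not overlap. The log2 fold change was 0.22 ± 0.05 (limma, adjusted p = 0.000822) with an interval of 0.11 to 0.33, again under 1.5-fold.

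Ltbp1 and Ltbp4 each have a second, shorter entry that starts inside the longer one, so reads outside it can be set apart. This split was made after the values were seen. For Ltbp1, the 174 kb outside the shorter entry (NM_206958) held 170, 162 and 147 normalized reads in WT and 177, 163 and 174 in DKO, whereas the 213 kb of the shorter entry held 517, 574 and 516 in WT and 674, 603 and 637 in DKO. The first of these overlapped between genotypes (exact permutation test, two-sided, p = 0.2) and the second did not (p = 0.1, the smallest that 3 against 3 allows). The share of Ltbp1 reads outside the shorter entry was 22.0% to 24.8% in WT and 20.8% to 21.4% in DKO (exact permutation test, p = 0.1). The longer Ltbp1 entry also ends further downstream, at 75391767 against 75391336. Reads outside the shorter entry are therefore not only upstream ones, and the 2 ends were not separated. For Ltbp4, the 4.03 kb outside the shorter entry (NM_001113549) held 34.7 to 37.9 normalized reads in WT and 34.4 to 44.7 in DKO, a range that overlaps. Their share of the Ltbp4 reads was 1.09% to 1.20% in WT and 1.31% to 1.66% in DKO, with no overlap (exact permutation test, p = 0.1). Read density there was 9.11 ± 0.435 per kb in WT and 9.92 ± 1.28 in DKO, against 111 ± 3.47 and 92.0 ± 0.895 inside the shorter entry. Most Ltbp4 reads thus lay beyond the start of the shorter entry in both genotypes. The shorter entry holds 5.118 kb of exon and the longer one 5.386 kb, so most reads of either transcript would fall there. These values therefore cannot tell which start was used.

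**Figure D4:**
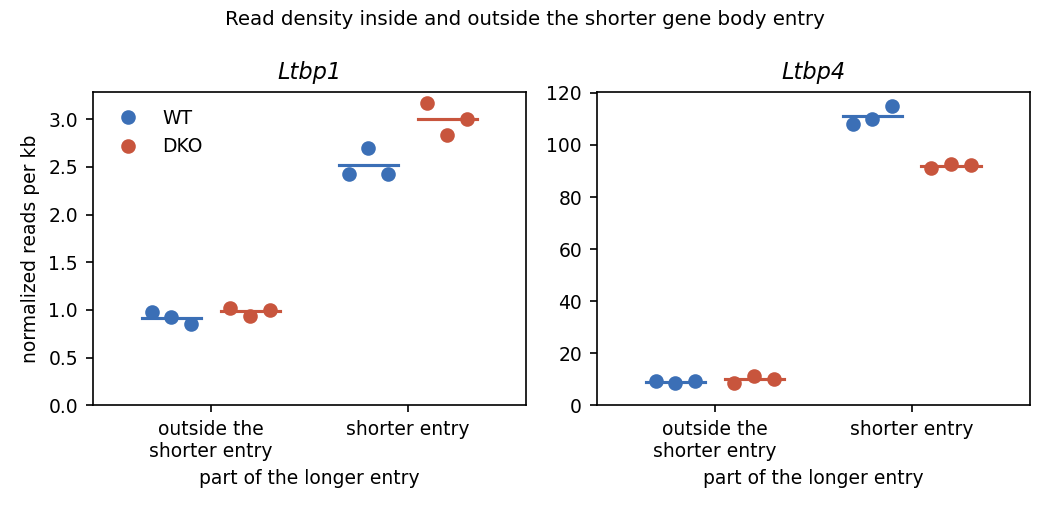
Normalized reads per kb in the part of the longer entry outside the shorter one and in the shorter entry, for Ltbp1 (left) and Ltbp4 (right), 1 point per library with lines at the mean. WT and DKO separate in the shorter entry of both genes, upward for Ltbp1 and downward for Ltbp4, and overlap outside it.

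Ltbp2 binds fibrillin and, unlike the other Ltbps, carries no latent TGF-beta. Its gene body (NM_013589, chromosome 12, 84783213 to 84876495, minus strand, 35 exons) held 29.5, 26.7 and 23.5 normalized reads in WT and 36.1, 49.4 and 40.4 in DKO. Every DKO library was above every WT library, by 0.63 ± 0.20 on the log2 scale (limma, adjusted p = 0.00846, 95% confidence interval 0.22 to 1.04). The call was lost without DKO replicate 2, the highest library (0.51, adjusted p = 0.064), and without WT replicate 3, the lowest (0.55, adjusted p = 0.0368, under 1.5-fold). Among its neighbours, Isca2 measured 572.5 ± 22.2 and 608.5 ± 33.8, and Arel1 measured 1946 ± 35.6 and 2393 ± 103, a difference of 0.30 ± 0.04 on the log2 scale (adjusted p = 4.79e-08) that is under 1.5-fold.

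Ltbp3 is needed for latent TGF-beta handling in bone. Its gene body (NM_008520, chromosome 19, 5740904 to 5758532, plus strand, 28 exons) held 30.1, 36.4 and 35.7 normalized reads in WT and 30.7, 25.2 and 42.5 in DKO. The groups overlapped, and the log2 fold change was -0.08 ± 0.21 (limma, adjusted p = 0.764). Its 95% confidence interval, -0.51 to 0.35, lies within 1.5-fold in either direction. The estimate moved to -0.28 ± 0.23 without DKO replicate 3 (adjusted p = 0.317) and to 0.09 ± 0.22 without DKO replicate 2 (adjusted p = 0.771).

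The activin and inhibin subunits were close to the detection limit. Inhbb, the subunit of activin B (NM_008381, chromosome 1, 119415465 to 119422248, minus strand), had 8, 8 and 13 reads in WT and 28, 14 and 18 in DKO. The groups did not overlap, and the log2 fold change was 0.86 ± 0.39 (limma, adjusted p = 0.063, 95% confidence interval 0.06 to 1.65). Inhbb was called higher without WT replicate 3 (1.04, adjusted p = 0.0445) and without DKO replicate 2 (1.06, adjusted p = 0.0416). It was not called in the 4 other fits that left out 1 library, and without DKO replicate 1, its highest library, the value was 0.59 with an adjusted p of 0.287. Inhbb passed the filter through its DKO libraries. Inhba, the subunit of activin A (NM_008380, chromosome 13, 16014475 to 16027211, plus strand), had 6, 3 and 8 reads in WT and 2, 6 and 4 in DKO, which overlap. An opposite-strand pseudogene, B230303A05Rik, covers 70.3% of its gene body. Inha (NM_010564, chromosome 1, 75507077 to 75510366, plus strand) had 4, 4 and 6 reads in WT and 2, 10 and 4 in DKO, which overlap as well. With no filter on low counts, Inhba and Inha had log2 fold changes of -0.39 ± 0.41 and -0.04 ± 0.43 (limma, adjusted p = 0.473 and 0.954). Neither gene was called in that fit.

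The surrounding pathway was described by lists. Counts of higher and lower genes in them are of called genes. Over all tested entries, 7.41% were called higher and 7.98% lower. Of 19 tested genes for pro-protein processing and activation of latent complexes, 5 were called higher in DKO and 1 lower, with a median log2 fold change of 0.15. Without the fold-change threshold, 9 were higher and 4 lower, where 55.1% of all entries were called. Itgb3 and Itgb5, which pair with the alpha-v subunit in integrins that bind latent TGF-beta, rose from 47.0 ± 12.3 to 166 ± 10.8 and from 1605 ± 43.3 to 3252 ± 26.6 normalized reads (log2 fold changes 1.83 ± 0.15 and 1.02 ± 0.03). Of the same integrins, the beta subunit gene Itgb8 measured 166 ± 24.1 and 123 ± 12.8 with no overlap (-0.43 ± 0.11, limma, adjusted p = 0.00226, under 1.5-fold), and the alpha-v gene Itgav measured 2187 ± 94.5 and 2171 ± 15.25. Thbs1, thrombospondin 1, which can activate latent TGF-beta, rose from 1086 ± 36 to 2845 ± 117.5 (1.39 ± 0.04), and Pcsk6, a convertase of Nodal-family pro-proteins, rose from 681 ± 49.9 to 1559 ± 55.1 (1.19 ± 0.05). The remaining called genes of the list were Bmp1 (0.81 ± 0.15), a protease that can cut Ltbps, and the lowered convertase Pcsk5 (-0.60 ± 0.13), which was under 1.5-fold without WT replicate 1 (-0.55) or DKO replicate 1 (-0.57). The main convertase of pro-TGF-beta, Furin, measured 131.5 ± 29.7 and 159 ± 9.19 normalized reads, which overlapped between genotypes, and was not called (0.30 ± 0.13, adjusted p = 0.0442).

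Among matrix partners, 3 of 14 tested genes were called lower and 1 higher, with a median log2 fold change of -0.31 (15.4% of all entries were called). Dcn, decorin, a proteoglycan that binds TGF-beta, fell by 2.14 ± 0.05 on the log2 scale, between means of 1330 ± 51.3 and 300.4 ± 16.9 normalized reads (limma, adjusted p = 9.19e-23). Fbn2, the fibrillin of embryonic microfibrils, fell by 0.97 ± 0.09 on the log2 scale and Mfap5, a microfibril protein, fell by 0.85 ± 0.08. Fbn1 (-0.53 ± 0.07) and Fn1 (-0.54 ± 0.04), the fibrillin and fibronectin to which Ltbps attach, lay just under the 1.5-fold threshold, and Fn1 passed it without DKO replicate 3 (-0.59). Mfap2 (0.62 ± 0.21) was called higher, but not without DKO replicate 2 (0.57, adjusted p = 0.0569) or WT replicate 3 (0.52, adjusted p = 0.0599).

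Of 11 tested receptors, co-receptors and extracellular antagonists, 1 was called, where 15.4% of all entries were. This was Eng, the co-receptor endoglin, with 511 ± 46.4 normalized reads in WT and 807 ± 31.1 in DKO (0.66 ± 0.06 on the log2 scale, limma, adjusted p = 1.77e-10). Without WT replicate 2 its value was 0.58, just under 1.5-fold. The signalling receptor Tgfbr1 measured 2760 ± 99.5 and 3318 ± 147 (0.27 ± 0.03), and its partner Tgfbr2, which binds TGF-beta first, measured 23.3 ± 1.05 and 33.0 ± 8.36 (0.45 ± 0.22, adjusted p = 0.0906, interval -0.01 to 0.91). Tgfbr2 was called higher without DKO replicate 1 (0.66, adjusted p = 0.0183), and the WT and DKO libraries overlapped. Tgfbr3, betaglycan, measured 237 ± 12.7 and 231 ± 17.3, with an interval of -0.21 to 0.13 for the log2 fold change. The activin receptors Acvr1b and Acvr2a had intervals of -0.08 to 0.13 and -0.12 to 0.07, and Acvr2b and the activin-binding protein Fst differed by -0.20 ± 0.05 and -0.28 ± 0.04, under 1.5-fold.

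Of 14 genes that respond to TGF-beta or activin, 9 were called lower and 1 higher, where 15.4% of all entries were called. The study named some of these genes, Lefty1 and Lefty2 among them, for these libraries, so this count is not independent evidence of a direction. Pmepa1, a membrane protein that restrains Smad signalling, fell by 4.15 ± 0.10 on the log2 scale, between means of 642 ± 32.6 and 35.5 ± 4.54 normalized reads (limma, adjusted p = 6.78e-23). Ctgf, a secreted matricellular protein, was the 1 gene of the list called higher (0.86 ± 0.05). Lefty1 and Lefty2 had log2 fold changes of -7.22 ± 0.05 and -7.21 ± 0.09. For Lefty1, Lefty2 and Pmepa1 the size of the log2 fold change exceeded that of each of the 7 tested genes among the 10 by over 3.

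Among 7 tested genes for other activin, Nodal and growth differentiation factor ligands, 3 were called lower and 1 higher (15.4% of all entries were called). Inhbc and Inhbe, subunit genes that lie next to each other on chromosome 10, moved in opposite directions. Inhbc rose from 17.7, 26.7 and 19.7 normalized reads to 56.5, 67.8 and 44.6 (1.35 ± 0.21 on the log2 scale, limma, adjusted p = 3.17e-06), and Inhbe fell from 17.7, 26.2 and 18.1 to 1.08, 4.20 and 5.70 (-2.36 ± 0.40, adjusted p = 1.46e-05). Inhbe had 2, 8 and 11 reads in the DKO libraries and passed the filter through its WT libraries. The stress-responsive Gdf15 fell by 1.17 ± 0.16 on the log2 scale. Gdf1, a partner of Nodal, fell by 0.64 ± 0.06, and its longer entry shares its transcript with Cers1, so the reads of both cannot be told apart. Mstn had 0 reads in all 6 libraries.

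**Figure D5:**
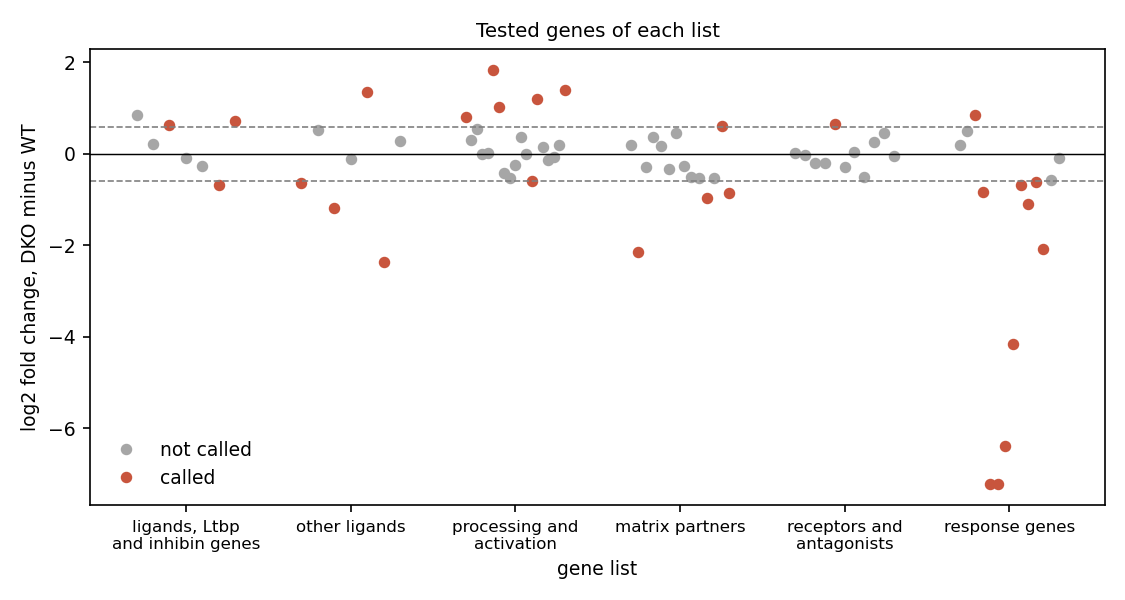
Log2 fold change (DKO minus WT, limma) of each tested gene of 6 lists, called genes in red and others in grey, with dashed lines at 1.5-fold. The 7 tested genes of the 10 lie between -0.69 and 0.86, while response genes reach -7.22.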

How the data were processed

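RNA from 3 WT and 3 DKO differentiations was depleted of ribosomal RNA, prepared with a stranded kit and sequenced from both ends. The authors removed ribosomal reads with bowtie2, aligned to mm10 with STAR, removed duplicates with Samtools and counted reads over refGene gene bodies. Versions and the use of strand are not given in the sources used here. The authors deposited a signal per entry and library, namely reads divided by a DESeq2 size factor, with no length scaling. The authors' own comparison table (mean, fold changes, standard errors, test statistics and p-values) was not used.

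Dividing by the value of 1 read gave whole reads (tolerance 0.01) for 100% of values. Of gene values from 1 to 19 reads, 68.7% to 71.4% were even numbers, the pattern that counting both mates of a pair gives, so reads are not independent molecules, and all errors reflect only counting and the spread among replicates. Rows without a symbol (138, 0.517% of reads) were left out. Entries passing filterByExpr (edgeR 4.0.16) on recovered reads were tested with limma 3.58.1, run in R 4.3.3 with a variance trend, on log2(value + 1), a scale that understates changes of low genes. DESeq2 1.42.0, edgeR and limma-voom on the recovered reads, run as alternatives, called 3714, 3947 and 3993 entries. Limma, limma-voom, edgeR and DESeq2 were also run on simulated data, with results not given here. The other alternative settings were not run on simulated data. Spans, exons and overlaps came from GENCODE M21 by RefSeq identifier, and neighbours and promoters from RefSeq.

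Named genes are the 10 members, Smad2 and Smad3, tested neighbours of called members and the 3 genes most correlated with the called member of largest change. Tgfbr1, Tgfbr2, Tgfbr3, Acvr1b, Acvr2a, Acvr2b and Fst were chosen by name. Up to 4 called genes per pathway list were added, with no overlap between groups and a mean of at least 20 normalized reads. Others (Bmp1, Pcsk5, Ctgf, Itgb8, Itgav, Furin, Fbn1, Fn1, Nodal, Gdf3, Mstn, Dnmt3b, Fgf5, Pou3f1, Sox2, Sall4, Col1a2, Gata3, Gata2, Hand1) were named after their values were seen. Some results that this rule selects are not reported here. The members and lists were chosen with earlier results of these data known. No p-value refers to differences between independent lines.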

Additional observations from a re-analysis of the deposited data

How the results depend on the processing

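The 3 called genes lost their calls with a pseudocount of 10, which left 0 of the 10 called, because their fold changes shrank under 1.5 (Tgfb1 -0.55, Tgfb2 0.50, Ltbp2 0.50) while adjusted p stayed at 0.00127 to 0.00874. Without the fold-change threshold, 13977 entries (55.1%) and 5 of the 10 genes were called, and 13 processing, 9 matrix, 6 receptor and 7 other ligand genes. Leaving out 1 library gave 2 to 3 called genes among the 10 and 0 to 2 receptors and antagonists, and Ltbp3 turned from -0.08 to 0.0865 without DKO replicate 2. Inhbb was called with edgeR (0.99, adjusted p = 0.0471) and with no filter on low counts (0.86, adjusted p = 0.0484), which made 4 called genes in each. Over 15 alternatives Tgfb1 ranged from -0.78 to -0.55, Tgfb2 from 0.50 to 0.82, Ltbp2 from 0.50 to 0.73, Ltbp1 from 0.18 to 0.26, Ltbp3 from -0.28 to 0.09, Ltbp4 from -0.28 to -0.24 and Inhbb from 0.42 to 1.06 (adjusted p from 0.0416 to 0.287). Scaling by library size alone changed no call among the 10 genes and gave a median log2 fold change of -0.00464 over all entries. The WT level of Ltbp4 was 105 per kb as a mean over its entries and 595 per kb of exon. Same-numbered replicates did not deviate together (r = 0.00881, -0.0293 and 0.0365 across 11930 genes), and with a replicate block the same number of these genes, 3, was called, with 3913 entries in all. At 0 to 28 reads per library, counts of Inhba, Inhbb, Inha and Tgfb3 are imprecise.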
